A study of Homo sapiens with 16 samples.

Results

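The state of SK-N-BE(2)C cells given palbociclib and retinoic acid together (PB+RA) was compared with that of cells given the vehicle dimethyl sulfoxide (DMSO). SK-N-BE(2)C is an established human neuroblastoma line with amplified MYCN and an adrenergic, that is sympathetic neuroblast-like, identity. The comparison took the 4 PB+RA and 4 DMSO libraries by the group named in their titles, which is 8 of the 16 samples of the series. The PB+RA cells had received 1 µM palbociclib (PB), an inhibitor of CDK4 and CDK6, and 10 µM retinoic acid (RA), and the methods give 5 days of treatment. The other 8 libraries, 4 given PB alone and 4 given RA alone at the same doses, entered the same fit and are quoted where they place a value. Gene expression was measured by sequencing of polyadenylated RNA. All cells were of 1 line, and replicates were different passages of it plated as independent experiments, so the spread between replicates is the spread between passages.

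CDK4 and CDK6 phosphorylate the retinoblastoma protein and so release E2F factors, which switch on the genes of DNA synthesis. A CDK4/6 inhibitor holds cells before S phase. Retinoic acid enters the nucleus, binds heterodimers of the retinoic acid receptors and retinoid X receptors, and activates genes next to their response elements, among them those for its own breakdown. Sympathetic neuroblasts that leave the cell cycle normally extend neurites and build the machinery to make, store and release catecholamines and peptides.

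The count table held 27037 genes, of which 15415 had enough counts to be tested, and the samples of the series held 19.5 to 31.6 M counts each. Values are given as CPM, the standard scaling of counts by the library total, and changes as log2 fold changes with their standard error (SE). A gene was said to rise or fall where edgeR's quasi-likelihood test, with the replicate number as a block, gave a Benjamini-Hochberg adjusted p below 0.05 and the log2 fold change passed 0.5 in size. CPM is a share of the RNA sequenced, so the amount of RNA per cell was not measured, and in bulk RNA a smaller number of cells of a type cannot be told apart from less of an RNA in each cell. The markers of the labelled cell type were present: all 10 adrenergic neuroblastoma markers were tested, none was below 1 CPM, and their summed level was 7098 to 7812 CPM in DMSO and 10510 to 15620 CPM in PB+RA. SOX10, listed here as a marker of Schwann cells and glia, had no counts. Of that list 4 other markers were tested, of which 2 rose and 2 fell. The endothelial markers summed to 0.759 to 1.02 CPM in DMSO and 1.70 to 3.54 CPM in PB+RA. The blood and immune markers summed to 13.5 to 20.9 CPM in DMSO and 32.9 to 124.8 CPM in PB+RA, with PTPRC and LYZ below 1 CPM and CD14 alone past the filter on low counts. The part of other cells in the results was not tested.

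PB+RA changed the expression of a large part of the transcriptome. Of the genes tested, 3909 rose (25.4%) and 2863 fell (18.6%), which is 6772 in either direction (43.9%). The counts given for each gene list below are to be read beside these shares. The median log2 fold change over all tested genes was 0.04. The CPM of 8977 genes (58.2%) did not overlap between the 4 DMSO and the 4 PB+RA samples, so a lack of overlap in a gene named below is common. The genes that rose held 11.2 to 11.6% of all counts in the DMSO samples and 22.6 to 24.1% in the PB+RA samples. The genes that fell held 24.9 to 25.2% in DMSO and 13.2 to 14.1% in PB+RA. The 8643 genes that did not pass both criteria held a mean of 63.4% of counts in DMSO and 63.1% in PB+RA.

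The share of genes that rose or fell varied with abundance. Among the 1949 genes with a mean below 1 CPM over the 16 samples, 38.3% rose and 13.5% fell, and among the 3464 genes from 1 to 10 CPM, 38.9% rose and 17.9% fell. Among the 7418 genes from 10 to 100 CPM, 19.3% rose and 20.1% fell, and from 100 to 1000 CPM the shares were 14.8% and 18.8%. Of the 64 genes at 1000 CPM or more, 14 rose and 12 fell. The filter on low counts and these means took in all 16 samples. A gene barely counted in DMSO could thus enter through a treated group where it was high, which favours rises at low abundance. This holds for the gene lists too. With only the 8 samples of DMSO and PB+RA, 14897 genes were tested, of which 3570 rose and 2933 fell. The genes that hold 50% of a sample's counts numbered 1212 ± 14.6 (SD, n = 4) in DMSO and 1196 ± 20.3 (SD, n = 4) in PB+RA, which did not differ beyond the spread (two-sided exact permutation test, p = 0.229). The 100 most abundant genes held 13.9 ± 0.146% of counts in DMSO and 14.97 ± 0.236% in PB+RA. These shares did not overlap, and the exact permutation p of 0.0286 is the smallest that 4 samples against 4 can give (0.0571 adjusted over both composition measures). Unlike the gene tests, both composition tests took the samples as unpaired and left out the replicate number. Of the 3909 genes that rose, 178 held 50% of the CPM they gained, and of the 2863 that fell, 243 held 50% of the CPM lost. No baseline was computed for these numbers.

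**Figure D1:**
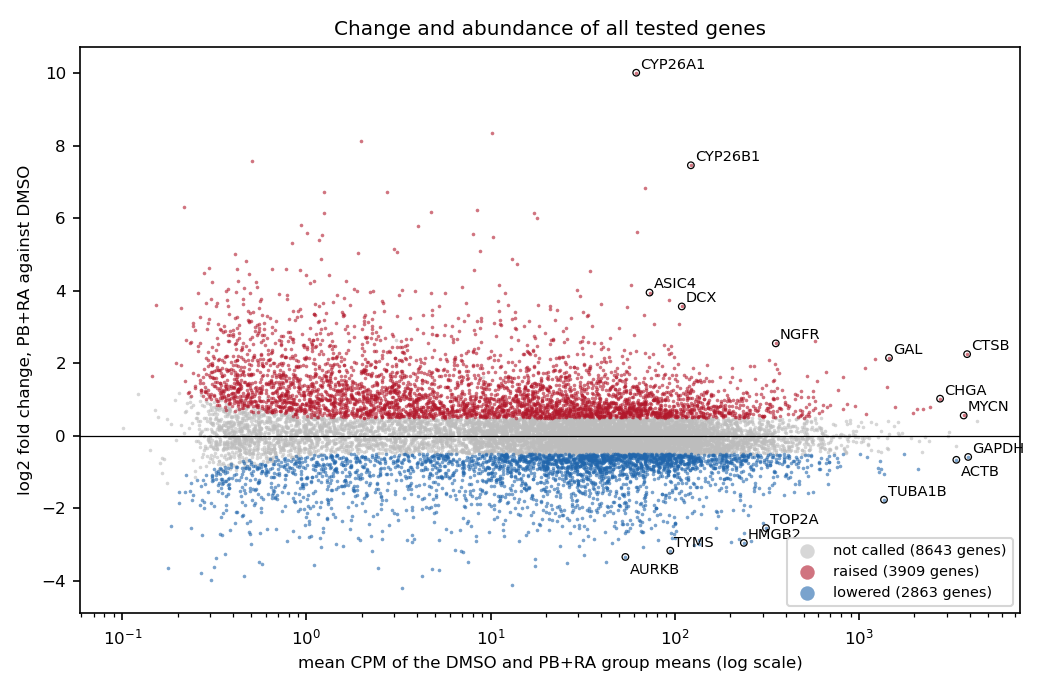
Log2 fold change of PB+RA against DMSO (vertical axis) for each of the 15415 tested genes, against the mean CPM of the DMSO and PB+RA group means (horizontal axis, log scale). Red points rose, blue points fell and grey points did not pass both criteria; named genes are circled, and among those above 1000 CPM, CTSB lies highest at 2.25 and TUBA1B lowest at -1.76.

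The order of the most abundant transcripts changed. In DMSO the 10 most abundant genes were GAPDH, ACTB, EEF2, HSP90AB1, RGS5, MYCN, EEF1A1, PKM, RPS2 and ACTG1, mostly genes of glycolysis, cytoskeleton and translation. In PB+RA they were CTSB, EEF2, MYCN, CHGA, EEF1A1, GAPDH, PSAP, HSP90AB1, RGS5 and VGF. CTSB and PSAP act in lysosomes, and CHGA and VGF are cargo of secretory granules. CTSB encodes the lysosomal protease cathepsin B and was counted at 1282, 1264, 1431 and 1310 CPM in the DMSO replicates and at 6270, 6575, 6386 and 6410 CPM in the PB+RA replicates. The groups lay far apart, and CTSB moved from rank 37 to rank 1. Its log2 fold change was 2.25 ± 0.06 (SE; adjusted p = 2.133e-15), and its mean was 3838 CPM with RA alone and 1756 CPM with PB alone.

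Several of the other large gains were in secreted or granule proteins. CHGA, the granule protein chromogranin A (chr14:93389495-93401630 in hg19, plus strand), measured 2029, 1784, 1449 and 1564 CPM in DMSO and 4983, 5600, 2235 and 2419 CPM in PB+RA. The groups did not overlap, but PB+RA replicates 1 and 2 lay far above replicates 3 and 4, and the log2 fold change was 1.02 ± 0.17 (SE; adjusted p = 0.00028). GAL, which encodes the neuropeptide galanin, measured 601, 494, 530 and 470.1 CPM in DMSO and 2834, 2735, 2025 and 1957 CPM in PB+RA. Every PB+RA sample was above every DMSO sample, and GAL rose by 2.15 ± 0.11 on the log2 scale, from rank 220 to rank 14. The related granin CHGB rose by 1.86 ± 0.08, and VGF, a neurotrophin-inducible granule protein, rose by 0.74 ± 0.06.

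The other large gains were CRABP2 and MYCN, PSAP, MMP2 and RET. CRABP2, a cytosolic carrier that delivers retinoic acid to its receptors, was at 381, 397, 562 and 494 CPM in DMSO and at 2040, 2029, 1833 and 2101 CPM in PB+RA, a rise of 2.12 ± 0.10. PSAP, the precursor of the saposins that help to break down sphingolipids, rose by 0.80 ± 0.04, from a mean of 1756 to 3106 CPM. MMP2, a secreted gelatinase, rose by 1.35 ± 0.05, from 790.3 to 2036 CPM. RET, the signalling receptor for GDNF family ligands, rose by 0.75 ± 0.04, from 1524 to 2607 CPM. MYCN, the amplified oncogene of this line, measured 2618, 3304, 3113 and 2752 CPM in DMSO and 4862, 5451, 3867 and 3670 CPM in PB+RA, with no overlap. Its log2 fold change of 0.56 ± 0.07 (adjusted p = 2.071e-06) passed the fold minimum narrowly: without PB+RA replicate 1 it was 0.45, without DMSO replicate 1 it was 0.49, and without DMSO replicate 2 it was 0.50, each no longer past the criteria. In replicates 3 and 4 alone it was 0.30. The mean MYCN level was 5482 CPM with PB alone and 2635 CPM with RA alone.

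The largest losses in CPM were in cytoskeletal, glycolytic and nuclear RNA-binding genes. GAPDH, a glycolytic enzyme, was at 4645, 4703, 4669 and 4637 CPM in DMSO and at 3075, 3084, 3264 and 3274 CPM in PB+RA. ACTB, cytoplasmic beta-actin, was at 4282, 3977, 4129 and 4057 CPM in DMSO and at 2547, 2617, 2710 and 2719 CPM in PB+RA. Neither gene overlapped between the groups, and they fell by 0.58 ± 0.04 (SE) and 0.66 ± 0.04 on the log2 scale. Both are often used as constant references for normalization. TUBA1B, the ubiquitous alpha-tubulin, was at 2113, 2051, 2134 and 2094 CPM in DMSO and at 539, 525, 738 and 748 CPM in PB+RA. It fell by 1.76 ± 0.09 (adjusted p = 1.658e-10), from rank 13 to rank 146. TUBA1A, the alpha-tubulin most used by young neurons, went the other way, from a mean of 1394 to 1848 CPM, with a log2 fold change of 0.38 ± 0.04 that stayed under the fold minimum.

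PKM and ENO1, enzymes of late glycolysis, fell by 0.91 ± 0.05 and 0.90 ± 0.04. HNRNPA2B1, a splicing and RNA transport factor, fell by 1.05 ± 0.04. The nucleolar proteins NPM1 and NCL fell by 0.69 ± 0.04 and 0.51 ± 0.04 (NCL -0.48, under the fold minimum, with scaling by library totals), and PTMA, an acidic nuclear protein, fell by 0.91 ± 0.05. DOK4, an adaptor of receptor tyrosine kinases that include RET, was at 2041, 1468, 1634 and 1663 CPM in DMSO and at 889, 716, 937 and 925 CPM in PB+RA. DOK4 fell by 1.00 ± 0.07, and its mean was 542 CPM with RA alone and 1848 CPM with PB alone. The HNRNPA2B1 gene overlaps CBX3 on the opposite strand and several of these genes have near-identical pseudogene copies, so their counts are uncertain to the extent that reads were assigned to either.

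**Figure D2:**
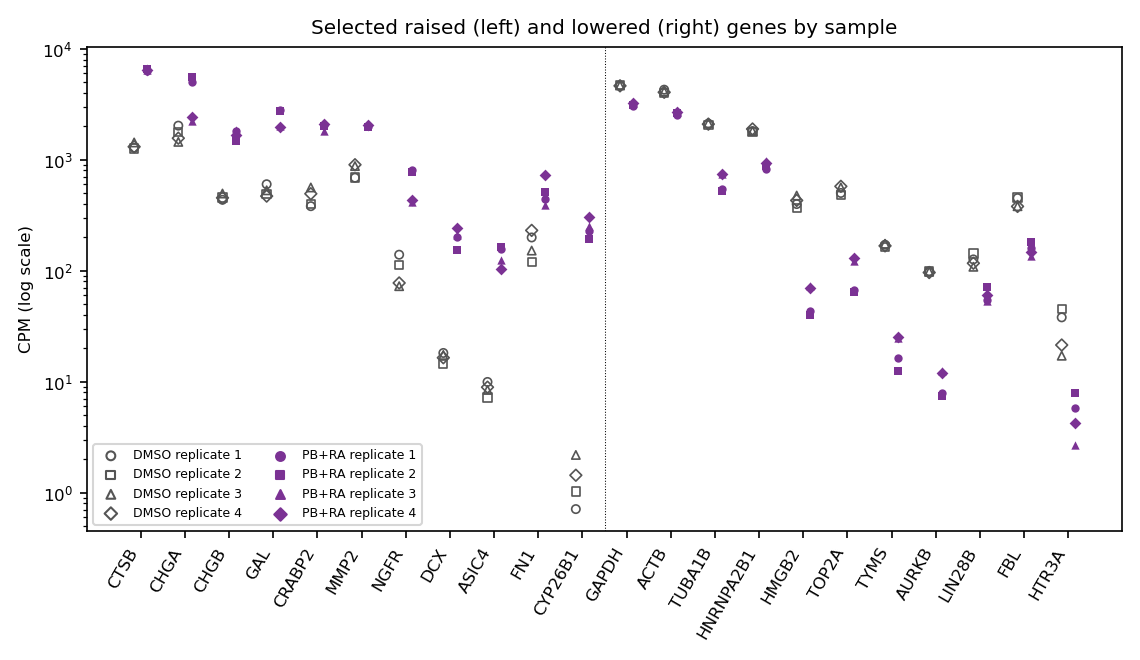
CPM on a log scale in each of the 4 DMSO (open grey) and 4 PB+RA (filled purple) samples, with 1 marker shape per replicate, for 11 genes that rose (left of the dotted line) and 11 that fell (right). The 2 groups do not overlap for any gene drawn; for CHGA, NGFR and TOP2A, PB+RA replicates 1 and 2 sit apart from replicates 3 and 4.

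Above a mean of 50 CPM, the largest rises by fold were in CYP26A1, CYP26B1, CDH23, ADAMTS14 and GJA5. CYP26A1 and CYP26B1 encode the enzymes that break down retinoic acid. CYP26A1 was close to the level that 3 counts are worth in all 4 DMSO samples, at 0.0355, 0.163, 0.158 and 0.0774 CPM, and at 51.4, 71.5, 213.8 and 156.9 CPM in PB+RA, and no fold is given for it. CYP26B1 rose from 0.709, 1.02, 2.18 and 1.43 CPM to 225.6, 192.0, 251.0 and 304.4 CPM, a log2 fold change of 7.46 ± 0.17. CDH23, a long cadherin, rose by 6.83 ± 0.12 and reached 171.1, 144.3, 102.8 and 127.1 CPM. ADAMTS14, a procollagen-processing protease, rose by 5.62 ± 0.28, and GJA5, the gap junction protein connexin 40, by 4.15 ± 0.07. The 5 largest falls at this abundance were all in genes of proliferating cells: AURKB, TYMS, PCLAF, CCNA2 and NUSAP1.

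Genes of the dividing cell fell almost without exception. Of 40 genes of DNA replication and nucleotide supply, 39 fell and 0 rose, with a median log2 fold change of -1.79, and of 35 genes of mitosis all 35 fell, with a median of -2.30, against a median of 0.04 over all tested genes. The summed level of the replication genes was 6303 to 6397 CPM in the DMSO samples and 1806 to 2189 CPM in the PB+RA samples. That of the mitosis genes was 6405 to 6562 CPM in DMSO and 1235 to 1696 CPM in PB+RA. The DMSO samples lay close together on both sums, while PB+RA replicates 1 and 2 lay below replicates 3 and 4 on both.

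AURKB, the kinase of the chromosomal passenger complex, was at 98.9, 98.4, 98.2 and 96.2 CPM in DMSO and at 7.91, 7.44, 12.5 and 11.9 CPM in PB+RA, and it fell by 3.34 ± 0.13 (SE) on the log2 scale. TYMS, which makes the thymidylate needed for DNA, was at 171.3, 164.3, 174.9 and 167.4 CPM in DMSO and at 16.3, 12.4, 24.8 and 25.01 CPM in PB+RA, and it fell by 3.17 ± 0.16. TOP2A, the topoisomerase that untangles chromosomes, was at 502, 479, 563 and 576 CPM in DMSO and at 66.4, 64.3, 122 and 131 CPM in PB+RA, and it fell by 2.54 ± 0.14. In none of these 3 genes did the groups overlap, as for 58.2% of all tested genes. In each the PB+RA level of replicates 1 and 2 was below that of replicates 3 and 4. PCNA, the sliding clamp of DNA polymerase, fell by 2.68 ± 0.14 and MCM3, a subunit of the replicative helicase, by 1.60 ± 0.06. MCM7 of the same helicase fell less, by 1.32 ± 0.05, and kept a mean of 275.7 CPM. CDK1 and PLK1, the kinases that drive mitosis, fell by 2.67 ± 0.09 and 2.54 ± 0.07. CCNA2, cyclin A, fell by 3.02 ± 0.10, although its gene overlaps EXOSC9 on the opposite strand.

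Elements known to tie genes to the cell cycle were found in some but not all promoters of these lists, and 4 that hold a match are shown. Each runs from 200 bases before the start to 10 after it, 5′ to 3′ on the gene's strand, from RefSeq on GRCh38.p14. In CDK1 (chr10:60778131-60778340, plus strand) and PLK1 (chr16:23678689-23678898, plus strand) capitals mark the letters TTTGAA, searched as the cell cycle homology region, and the box CCAAT. In MCM3 (chr6:52284733-52284942, minus strand) and PCNA (chr20:5126613-5126822, minus strand) capitals mark an E2F element, searched as TTTCCCGC, TTTGGCGC or TTTCGCGC, on either strand.
CDK1: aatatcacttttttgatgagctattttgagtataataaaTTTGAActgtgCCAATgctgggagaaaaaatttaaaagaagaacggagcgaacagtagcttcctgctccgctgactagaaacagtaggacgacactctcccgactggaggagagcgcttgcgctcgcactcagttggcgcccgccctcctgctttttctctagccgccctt
PLK1: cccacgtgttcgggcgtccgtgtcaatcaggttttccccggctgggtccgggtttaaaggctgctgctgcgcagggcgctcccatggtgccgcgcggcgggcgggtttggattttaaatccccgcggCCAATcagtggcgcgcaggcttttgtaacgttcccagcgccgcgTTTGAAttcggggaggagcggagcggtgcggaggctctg
MCM3: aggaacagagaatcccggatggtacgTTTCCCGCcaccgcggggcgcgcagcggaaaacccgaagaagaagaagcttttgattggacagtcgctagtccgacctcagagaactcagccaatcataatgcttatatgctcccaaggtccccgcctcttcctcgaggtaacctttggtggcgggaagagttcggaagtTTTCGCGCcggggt
PCNA: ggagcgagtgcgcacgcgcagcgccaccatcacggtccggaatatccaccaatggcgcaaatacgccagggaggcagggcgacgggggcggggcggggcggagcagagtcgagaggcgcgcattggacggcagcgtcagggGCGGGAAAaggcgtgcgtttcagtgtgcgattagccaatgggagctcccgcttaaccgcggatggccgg
In CDK1 the TTTGAA element ended 6 bases before the CCAAT box, while in PLK1 the CCAAT box came first and TTTGAA lay at 29 to 24 bases before the start. A promoter of 300 bases, 250 before the start and 50 after, was found for 11316 tested genes (73.4%). TTTGAA was present on either strand in 20 of the 29 mitosis promoters found (69.0%) and in 9.69% of all of them, in 13.9% of those of genes that fell and in 9.08% of those that rose. An E2F element was present in 17 of the 36 replication promoters found (47.2%) and in 3 of the 29 mitosis promoters, and in 4.54% of all, 7.89% of those that fell and 2.40% of those that rose. CCAAT was present in 21 of 29 mitosis promoters (72.4%) and in 36.4% of all. The E-box CACGTG was present in 10.3% of the promoters of genes that fell and 9.11% of those that rose, and the cyclic AMP response element TGACGTCA in 3.29% and 3.12%. A match describes the letters in the window and is not a measured binding site. TTTGAA also occurs, unmarked, in the CYP26A1 and RARB promoters printed below, both of genes that rose.

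Genes that control G1 and cell-cycle exit moved both ways. Of 22 tested genes, 5 rose and 11 fell, with a median log2 fold change of -0.54, beside 25.4% raised and 18.6% lowered over all tested genes. CCNE2, a cyclin E, had the largest fall, from a mean of 31.5 CPM to 3.10 CPM, although its gene overlaps 2 others on the opposite strand. BTG2, an antiproliferative gene, had the largest rise: it was at 21.0, 19.4, 19.3 and 22.5 CPM in DMSO and at 95.9, 93.4, 79.7 and 91.7 CPM in PB+RA, a rise of 2.10 ± 0.06 (SE). CCND1, cyclin D1 and the most abundant gene of the list, rose by 0.62 ± 0.04, from a mean of 1526 to 2394 CPM, with a value of 0.47, under the fold minimum, after a correction for GC content and gene length.

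Chromatin genes fell with those of replication. Of 37 tested genes of chromatin and DNA methylation, 24 fell and 2 rose, with a median of -0.95, and the summed level was 7417 to 7665 CPM in DMSO and 3555 to 3936 CPM in PB+RA. HMGB2, a DNA-bending protein, was at 399, 368, 475 and 429.8 CPM in DMSO and at 42.9, 39.5, 73.3 and 69.4 CPM in PB+RA, and it fell by 2.95 ± 0.13 (SE). H2AZ1, a histone variant expressed outside S phase too, fell by 1.54 ± 0.05, to a mean of 293.7 CPM. SMARCA4, the ATPase of the BAF remodelling complex and the most abundant gene of the list, was at 634.8 ± 19.3 CPM (SD, n = 4) in DMSO and 605 ± 29.5 CPM in PB+RA, and the groups overlapped. DPF3, a subunit of the neuronal form of that complex, rose by 1.20 ± 0.14.

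Splicing factors made up an abundant group that fell. Of 42 spliceosome and hnRNP genes, 33 fell and 0 rose, with a median of -0.74, and together they went from 17490 to 17700 CPM in DMSO to 10160 to 11000 CPM in PB+RA. HNRNPD, which binds AU-rich elements and was the member that fell most, was at 808, 806, 759 and 771 CPM in DMSO and at 258.5, 285.7, 279.9 and 261.2 CPM in PB+RA, and it fell by 1.56 ± 0.05 (SE). Among 26 tested neuronal and progenitor RNA-binding proteins the change ran both ways, with 10 raised and 6 lowered. Over all tested genes the shares were 25.4% raised and 18.6% lowered. CELF4, a neuronal splicing and translation regulator, rose by 1.63 ± 0.08. LIN28B, a progenitor protein that blocks let-7 processing, was at 126.3, 143.3, 108.4 and 116.7 CPM in DMSO and at 54.9, 70.7, 53.6 and 60.6 CPM in PB+RA, and it fell by 1.07 ± 0.06.

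Genes of the translation apparatus differed by list. Of 78 tested genes of cytosolic ribosomal proteins, 1 rose and 2 fell (7 with a correction for GC content and gene length, 6 in replicates 3 and 4 alone and 4 without PB+RA replicate 1), with a median of -0.07, and their summed level overlapped between the groups, at 44240 to 47240 CPM in DMSO and 41320 to 46650 CPM in PB+RA. RPSA, which also gives a laminin-binding form, fell by 0.73 ± 0.04, and RPS2, the most abundant of them, had a log2 fold change of -0.43 ± 0.05, under the fold minimum, which it passed at -0.51 without PB+RA replicate 1. Of 30 genes of ribosome biogenesis, 9 fell (14 with that correction or in replicates 3 and 4 alone) and 0 rose, with a median of -0.37 and a sum of 7648 to 8303 CPM in DMSO and 5476 to 6348 CPM in PB+RA. FBL, the nucleolar methyltransferase fibrillarin, had the largest fall in that list, from 451, 456, 381 and 379.5 CPM to 159.1, 182.6, 136.4 and 146.9 CPM and fell by 1.45 ± 0.05. Of 32 translation factors and chaperones, 1 rose and 5 fell (9 with that correction), beside 25.4% raised and 18.6% lowered over all tested genes. EIF4A2, a helicase paralogue linked to translational repression, rose by 1.01 ± 0.04, EIF5A fell by 0.71 ± 0.04, and EEF2, the translocation factor, had a log2 fold change of 0.41 ± 0.04, under the fold minimum.

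Genes of energy and lipid metabolism differed by list, and are set against the 25.4% of all tested genes that rose and the 18.6% that fell. Of 20 genes of glycolysis, 9 fell and 2 rose, with a median of -0.35, and the sum was 14390 to 15350 CPM in DMSO and 9982 to 10700 CPM in PB+RA. PFKM, a phosphofructokinase subunit, was one of those that rose, by 0.70 ± 0.04 (SE), but with the correction for GC content and length its value was 0.49, under the fold minimum, and none of the 20 passed as raised. Of 52 nuclear genes of oxidative phosphorylation, 4 fell and 1 rose, with a median of -0.20. The lowered number was 9 with the correction, 11 in replicates 3 and 4 alone and 7 without PB+RA replicate 2. CYC1, cytochrome c1, fell by 0.67 ± 0.05, while NDUFC2 of complex I rose by 0.97 ± 0.08 and ATP5F1B, of the ATP synthase and the most abundant of the list, had a value of -0.44 ± 0.04, under the fold minimum. The 13 mitochondrially encoded genes were not analysed here. Of 24 genes of cholesterol and fatty acid synthesis, 10 fell and 0 rose, with a median of -0.46. SCD, the stearoyl-CoA desaturase, overlapped between the groups with 980.7 ± 71.3 CPM (SD, n = 4) in DMSO and 984 ± 54.5 CPM in PB+RA.

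**Figure D3:**
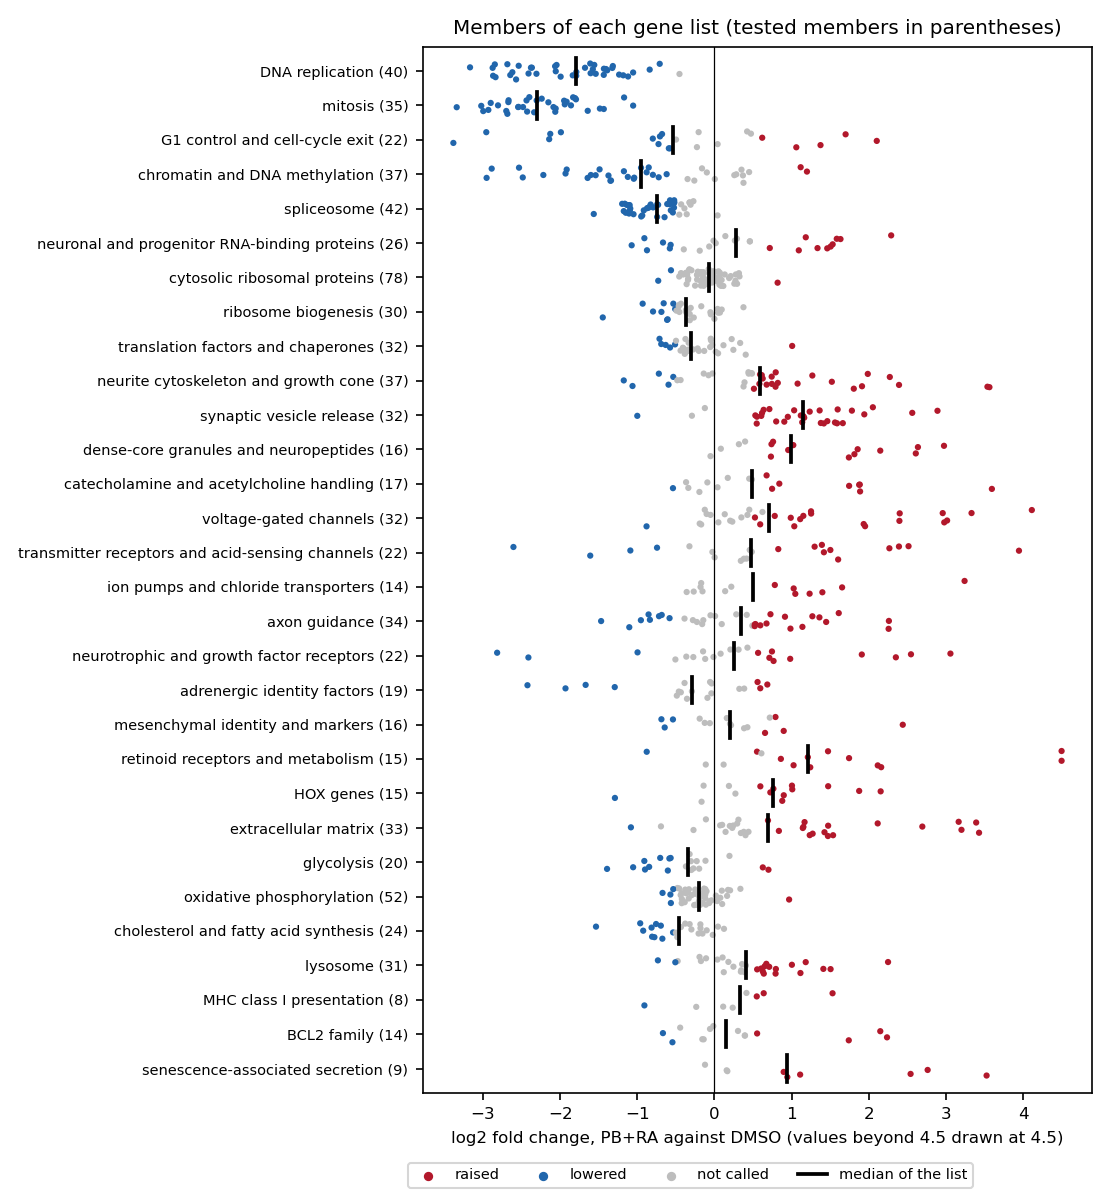
Log2 fold change of PB+RA against DMSO (horizontal axis) for each tested member of 30 gene lists (rows, with the number tested in parentheses), with red for genes that rose, blue for genes that fell, grey for the others and a black bar for the list's median. The medians run from -2.30 for mitosis to 1.21 for the retinoid list; values beyond 4.5 are drawn at 4.5.

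Genes of the growing neurite rose in most cases. Of 37 genes of the neurite cytoskeleton and growth cone, 21 rose and 5 fell, with a median of 0.59, and the summed level was 11090 to 11400 CPM in DMSO and 14760 to 16920 CPM in PB+RA. DCX, the doublecortin protein of migrating and newly formed neurons (chrX:110537007-110655657 in hg19, minus strand), was at 18.1, 14.5, 17.4 and 16.4 CPM in DMSO. It was at 202.9, 153.3, 209.9 and 240.5 CPM in PB+RA, far above every DMSO sample. The rise was 3.56 ± 0.08 (SE; adjusted p = 8.085e-18), and DCX was higher with both agents than with either alone (0.80 against PB, adjusted p = 7.3e-09, and 1.30 against RA, adjusted p = 3.1e-12). MAPT, the axonal protein tau, rose by 2.39 ± 0.07, from a mean of 12.6 to 67.4 CPM. DPYSL5, a collapsin response mediator, went against the rest of the list and fell by 1.17 ± 0.21.

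Nearly all measured genes of synaptic vesicle release rose. Of 32 tested genes, 29 rose and 1 fell, with a median of 1.15, and 3 of the 35 listed had too few counts to be tested. Their sum was 2757 to 2968 CPM in DMSO and 4581 to 5307 CPM in PB+RA. SYT5, a calcium sensor of secretory vesicles and the largest rise with at least 10 CPM, was at 10.0, 9.05, 14.5 and 12.2 CPM in DMSO and at 70.4, 61.2, 77.3 and 64.5 CPM in PB+RA, a rise of 2.56 ± 0.12 (SE). SNAP25, a core SNARE of vesicle fusion, rose by 1.59 ± 0.05, and SYP, the vesicle membrane protein synaptophysin, by 1.16 ± 0.05. Against PB alone the log2 differences were -0.07 for SNAP25 (adjusted p = 0.26) and 0.06 for SYP (adjusted p = 0.32). CPLX2, a complexin that clamps SNAREs and the most abundant gene of the list, was at 726 ± 71.5 CPM (SD, n = 4) in DMSO and 686 ± 127 CPM in PB+RA and overlapped. RIMS2, an active zone scaffold, was the member that fell, by 1.00 ± 0.13.

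Dense-core granule and peptide genes rose to a high level. Of 16 tested genes, 12 rose and 0 fell, with a median of 0.99; of the 22 listed, 5 were below the filter and 1 was not analysed here. Their sum was 6941 to 7804 CPM in DMSO and 13000 to 16450 CPM in PB+RA, with replicates 1 and 2 the higher. SST, the peptide somatostatin, differed between replicates in both groups, at 0.816, 0.897, 9.14 and 5.96 CPM in DMSO and at 13.3, 11.1, 43.4 and 28.4 CPM in PB+RA. Replicates 3 and 4 were the higher in each group, the groups did not overlap, and SST rose by 2.64 ± 0.24 (SE).

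Catecholamine genes rose unevenly along the pathway. Of 17 tested genes of catecholamine and acetylcholine handling, 8 rose and 1 fell, with a median of 0.49. TH, tyrosine hydroxylase and the entry step, was at 94.6, 77.5, 99.1 and 72.4 CPM in DMSO and at 416, 327, 304 and 243.8 CPM in PB+RA, a rise of 1.88 ± 0.15 (SE). DDC, the next enzyme, overlapped between the groups at 562 ± 78.1 CPM (SD, n = 4) in DMSO and 537 ± 60.3 CPM in PB+RA. DBH, which makes noradrenaline, was at 416.5, 348, 286.3 and 306 CPM in DMSO and at 761, 665, 411 and 419 CPM in PB+RA. PB+RA replicate 3 lay just below DMSO replicate 1 and replicate 4 just above it, and the rise by 0.68 ± 0.08 dropped to 0.42 in replicates 3 and 4 alone, too small to pass. PNMT, which turns noradrenaline into adrenaline, was at 1.56, 3.14, 3.61 and 2.40 CPM in DMSO and at 38.3, 44.9, 25.2 and 25.5 CPM in PB+RA, a rise of 3.60 ± 0.26. The vesicular transporter SLC18A2 rose by 1.89 ± 0.06, though its gene overlaps PDZD8 on the opposite strand, and the noradrenaline transporter SLC6A2 rose by 0.84 ± 0.05. GCH1, which makes the cofactor of TH, fell by 0.54 ± 0.06. All 4 tested chromaffin cell markers, PNMT and CHGA among them, rose, though CARTPT stayed below 1 CPM in every sample of both groups. Their sum was 1456 to 2034 CPM in DMSO and 2282 to 5661 CPM in PB+RA. Nearly all of it was CHGA, which alone was at 1449 to 2029 CPM in DMSO and 2235 to 5600 CPM in PB+RA.

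Many genes of membrane excitability rose. Of 32 tested voltage-gated channel genes, 18 rose and 1 fell, with a median of 0.70, and 11 of the 43 listed were below the filter. CACNA1H, a T-type calcium channel, was at 33.2, 38.5, 20.5 and 22.1 CPM in DMSO and at 202.1, 197.8, 110.6 and 108.7 CPM in PB+RA. Replicates 1 and 2 were the higher in both groups, and the rise was 2.40 ± 0.06 (SE). KCNH2, a potassium channel of the ERG type, overlapped between the groups with a value of 0.20 ± 0.09. Of 22 tested transmitter receptors and acid-sensing channels, 10 rose and 4 fell, and 12 of the 37 listed were below the filter. Over all tested genes 25.4% rose and 18.6% fell, so the lowered share was near that of all genes. ASIC4, a member of the acid-sensing family, was at 9.93, 7.17, 8.41 and 8.90 CPM in DMSO and at 158.0, 162.1, 125.7 and 103.3 CPM in PB+RA, a rise of 3.95 ± 0.12. HTR3A, the serotonin-gated cation channel, fell by 2.60 ± 0.09, from a mean of 30.4 to 5.13 CPM. CHRNA3, the nicotinic subunit of autonomic ganglia, was the most abundant of the list and had a value of 0.42 ± 0.04, under the fold minimum.

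Of 14 tested ion pumps and chloride transporters, 7 rose and 0 fell, with a median of 0.50. ATP2B2, a plasma membrane calcium pump, was at 2.77, 1.43, 3.61 and 2.28 CPM in DMSO and at 29.7, 26.2, 22.5 and 20.6 CPM in PB+RA, a rise of 3.24 ± 0.15 (SE). ATP1B1, the beta subunit of the sodium pump, rose by 1.40 ± 0.06, with 349.7 and 319 CPM in PB+RA replicates 1 and 2 and 597 and 564.5 CPM in replicates 3 and 4.

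Pairs of a general and a neuronal form of the same protein changed unequally. In 6 of the 9 pairs the general form fell and in none did it rise. The neuronal form rose in 3 and fell in 1, beside 25.4% raised and 18.6% lowered over all tested genes. It had the higher log2 fold change in 8 of the pairs, although for PTBP2 (-0.19) and ENO2 (-0.32) that value was negative. The kinesin heavy chain KIF5B, found in all cells, went from 402, 422, 422.5 and 429.6 CPM in DMSO to 262.2, 275.8, 322 and 324 CPM in PB+RA, and its neuronal form KIF5A from 38.4, 30.4, 34.1 and 34.6 CPM to 135.9, 103.2, 131.7 and 120.1 CPM. KIF5B fell by 0.53 ± 0.05 (SE), passing the fold minimum narrowly (-0.46 in replicates 3 and 4 alone), and KIF5A rose by 1.81 ± 0.05, although KIF5A overlaps DCTN2 on the opposite strand. Per kilobase of exon KIF5A was still the lower, at 10.0 CPM against 50.5 CPM for KIF5B in PB+RA. Of the stathmins, which bind tubulin, STMN1 fell by 0.72 ± 0.05 and STMN2, the growth cone form, rose by 1.27 ± 0.05. The splicing repressor PTBP1 fell by 0.91 ± 0.04, and PTBP2, its neuronal form, stayed low at 12.4 ± 1.93 CPM (SD, n = 4) in DMSO and 11.02 ± 1.03 CPM in PB+RA. TUBB fell by 1.06 ± 0.07, and TUBB3, the neuronal beta-tubulin, had a value of 0.44 ± 0.04, under the fold minimum. The exception to the order was aldolase, where the brain form ALDOC fell by 1.39 ± 0.10 and ALDOA had a value of -0.30 ± 0.09. ALDOA and TUBB were counted at means of 9.49 and 41.1 CPM in DMSO, and both have overlapping or near-identical sequences elsewhere in the genome, so their levels are uncertain.

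**Figure D4:**
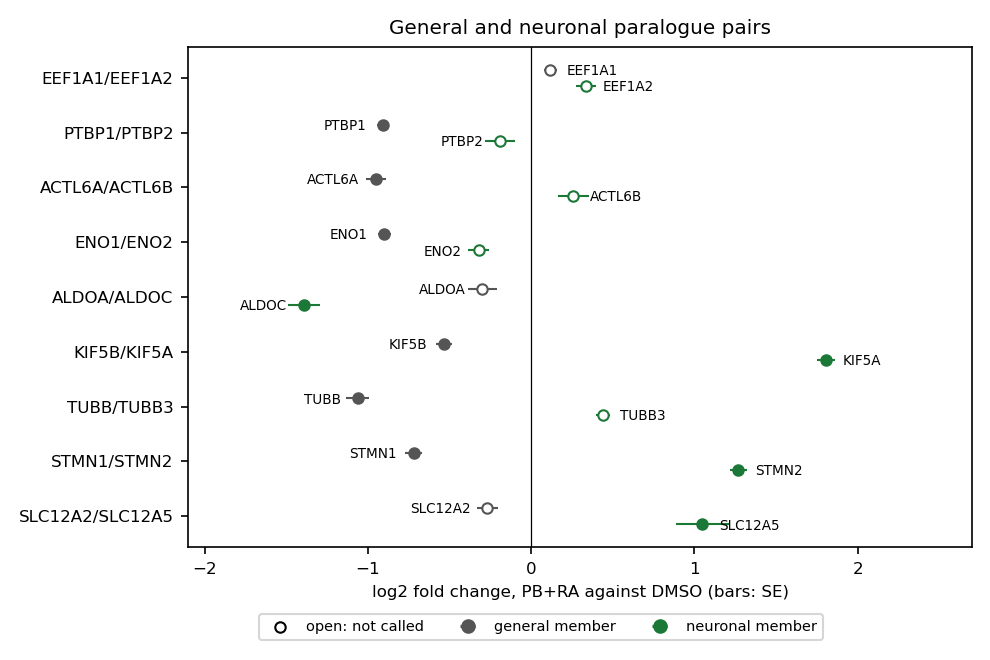
Log2 fold change of PB+RA against DMSO (horizontal axis, bars show the SE) for 9 pairs of a general (grey) and a neuronal (green) form of a protein. Filled points passed the criteria and open points did not; the widest gap is between KIF5B at -0.53 and KIF5A at 1.81, and the aldolase pair runs the other way.

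Guidance genes moved both ways. Of 34 tested axon guidance genes, 15 rose and 8 fell, with a median of 0.35, beside 25.4% raised and 18.6% lowered over all tested genes. SLIT2, a repellent ligand of ROBO receptors, was at 12.5, 9.50, 10.1 and 10.9 CPM in DMSO and at 43.0, 47.9, 53.3 and 67.7 CPM in PB+RA, a rise of 2.26 ± 0.11 (SE). Its mean was 100.1 CPM with RA alone, above PB+RA by the same test (log2 difference of PB+RA from RA of -0.94, adjusted p = 1.5e-07). SEMA3D, a secreted semaphorin, fell by 1.47 ± 0.17, and UNC5B, a netrin receptor and the most abundant of the list, had a value of 0.42 ± 0.05, under the fold minimum. All 4 plexin A receptors measured rose, PLXNA1 by 0.68, PLXNA2 by 0.99, PLXNA4 by 1.14 and PLXNA3 by 1.61, an observation made after the values were seen.

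Of 22 tested neurotrophic and growth factor receptors, 9 rose and 3 fell, with a median of 0.26, beside 25.4% and 18.6% of all tested genes. With the correction for GC content and length, 8 rose and 6 fell. NGFR, the low-affinity neurotrophin receptor (chr17:47572655-47592370 in hg19, plus strand), was at 139.3, 112.4, 72.5 and 77.5 CPM in DMSO and at 809, 777, 412 and 430.2 CPM in PB+RA. Replicates 1 and 2 were the higher in both groups, and the rise was 2.55 ± 0.08 (SE; adjusted p = 1.52e-14). Its mean was 283.6 CPM with RA alone and 240.5 CPM with PB alone. The list summed to 2570 to 2734 CPM in DMSO and 4204 to 4904 CPM in PB+RA, and without RET to 1097 to 1169 CPM and 1673 to 2107 CPM.

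The transcription factors of adrenergic identity went in both directions. Of 19 tested, 3 rose and 4 fell, with a median of -0.29, beside 25.4% raised and 18.6% lowered over all tested genes. The falls were the larger changes: all 4 exceeded 1 on the log2 scale, and 0 of the 3 rises did. With the correction for GC content and length 1 rose and 7 fell, in replicates 3 and 4 alone 1 rose, and without PB+RA replicate 1 the number that fell was 7. The summed level was higher in PB+RA with no overlap, at 7399 to 7855 CPM in DMSO and 8391 to 10050 CPM in PB+RA. Without MYCN the sum of the other 18 overlapped between the groups, at 4242 to 4827 CPM in DMSO and 4361 to 5190 CPM in PB+RA. GATA2 overlapped between the groups, at 949 ± 82.5 CPM (SD, n = 4) in DMSO and 946 ± 97.3 CPM in PB+RA. TLX2, a homeobox factor of neural crest derivatives, was at 229.0, 199.3, 214.2 and 209.4 CPM in DMSO and at 352.6, 336, 370.2 and 338 CPM in PB+RA. The groups did not overlap, and TLX2 rose by 0.69 ± 0.05 (SE).

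Mesenchymal genes also went in both directions. Of 16 tested, 4 rose and 3 fell (2 rose without the replicate block), shares near the 25.4% and 18.6% of all tested genes. The sum was 1112 to 1371 CPM in DMSO and 951 to 1130 CPM in PB+RA, which overlapped. VIM, the intermediate filament vimentin, fell by 0.54 ± 0.04 (SE), from a mean of 862 to 606.5 CPM, and its value in replicates 1 and 2 alone, -0.49, was too small to pass. The zinc finger factor SNAI1 rose by 0.90 ± 0.09, to 15.5 CPM, and SNAI2 fell by 0.69 ± 0.11, to 11.7 CPM. The markers of fibroblasts and stroma summed to 215.8 to 316 CPM in DMSO and 185.2 to 274.5 CPM in PB+RA, and those of Schwann cells and glia to 19.7 to 47.5 CPM and 31.5 to 39.6 CPM.

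Genes of the retinoid pathway rose with few exceptions. Of 15 tested, 11 rose and 1 fell, with a median of 1.21, and 6 of the 23 listed were below the filter. Beside the CYP26 enzymes and CRABP2, the receptors RARA and RARB rose. RARB, which retinoic acid induces through its own promoter, was at 7.09, 5.38, 10.0 and 10.2 CPM in DMSO and at 24.6, 20.7, 28.4 and 38.5 CPM in PB+RA, a rise of 1.75 ± 0.10 (SE). RARA rose by 1.21 ± 0.05, from a mean of 86.2 to 202.7 CPM. Their means in RA alone were 28.2 and 190.6 CPM, and neither passed the test between PB+RA and RA (RARB -0.02, adjusted p = 0.85, and RARA 0.07, adjusted p = 0.17). RXRA, a dimer partner of these receptors, was the member that fell, by 0.88 ± 0.07, and its mean was 34.7 CPM in RA and 19.5 CPM in PB.

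The response element of the retinoic acid receptors is a direct repeat of a 6-base half-site with 5 bases between the copies (DR5), and it is marked in capitals in the promoters of CYP26A1 (chr10:93073693-93073902, plus strand) and RARB (chr3:25428063-25428272, plus strand). Both windows run from 200 bases before the start to 10 after it, from RefSeq on GRCh38.p14.
CYP26A1: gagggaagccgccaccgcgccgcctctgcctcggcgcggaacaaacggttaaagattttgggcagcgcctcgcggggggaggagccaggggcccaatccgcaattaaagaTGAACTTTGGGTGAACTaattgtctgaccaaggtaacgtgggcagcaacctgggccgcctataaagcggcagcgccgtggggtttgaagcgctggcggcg
RARB: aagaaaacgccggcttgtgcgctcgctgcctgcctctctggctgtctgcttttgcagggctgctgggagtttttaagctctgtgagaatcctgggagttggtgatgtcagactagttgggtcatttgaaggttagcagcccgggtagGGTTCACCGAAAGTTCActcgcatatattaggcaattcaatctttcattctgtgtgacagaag
In RARB the repeat lay on the gene's strand, from 53 to 37 bases before the start. In CYP26A1 it lay on the opposite strand, 90 to 74 bases before the second start listed for the gene, which was chosen after the first was seen to hold none. By the first listed start of each gene, the repeat was found in 6 of the 11316 promoters, 3 of genes that rose and 0 of genes that fell.

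Most of the HOX cluster genes with enough counts to be tested rose. Of 39 listed, 15 were tested, 18 were below the filter and 6 were not analysed here. A gene could pass that filter through a treated group alone. Of the 15, 10 rose and 1 fell, with a median of 0.76, and their levels stayed low. HOXD9 was at 13.6, 13.8, 12.9 and 11.5 CPM in DMSO and at 39.5, 40.0, 32.4 and 35.3 CPM in PB+RA, a rise of 1.47 ± 0.08 (SE), with HOXD-AS2 on its opposite strand. HOXC8, the most abundant, rose by 0.60 ± 0.07, from a mean of 55.3 to 85.3 CPM. Its value was 0.79 in replicates 1 and 2 alone but 0.36 in replicates 3 and 4 alone, too small to pass.

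Genes of the extracellular matrix rose in part. Of 33 tested, 17 rose and 1 fell, with a median of 0.69, and the sum was 1772 to 2050 CPM in DMSO and 2864 to 3505 CPM in PB+RA. LAMA4, a laminin chain of vessels and nerves, was at 3.55, 3.63, 4.84 and 4.72 CPM in DMSO and at 27.1, 24.2, 58.9 and 51.7 CPM in PB+RA, a rise of 3.20 ± 0.25 (SE). FN1, fibronectin, was at 199.2, 119.3, 151.8 and 230.7 CPM in DMSO and at 444.5, 514, 391 and 728 CPM in PB+RA, a rise of 1.54 ± 0.24. COL6A1, a chain of collagen VI, rose by 1.47 ± 0.12. For all 3 genes the groups did not overlap, as for 58.2% of all tested genes. LAMC1, the most abundant of the list, had a value of 0.44 ± 0.05, under the fold minimum.

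The lysosomal genes rose in sum by more than in number. Of 31 tested, 15 rose and 2 fell, with a median of 0.41. The sum was 6646 to 7256 CPM in DMSO and 14590 to 15060 CPM in PB+RA, and without CTSB it was 5382 to 5825 CPM and 8086 to 8674 CPM. Without CTSB and PSAP it was 3760 to 3898 CPM in DMSO and 5158 to 5336 CPM in PB+RA, with no overlap. GAA, the acid alpha-glucosidase, rose by 1.51, and CTSD, the protease cathepsin D, by 0.61, both named after their values were seen. GUSB, beta-glucuronidase, fell by 0.73 ± 0.04 (SE).

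Smaller lists differed. Of 8 tested genes of MHC class I presentation, 3 rose and 1 fell (1 rose with the correction for GC content and length or in replicates 3 and 4 alone), and the sum overlapped between the groups. B2M, the shared light chain, overlapped with a value of -0.24 ± 0.05 (SE), and NLRC5, the transactivator of these genes, fell by 0.91 ± 0.08. Of 14 tested BCL2 family genes, 4 rose and 2 fell, shares near the 25.4% and 18.6% of all tested genes. BOK, a pro-death member, rose by 2.15 ± 0.11, from a mean of 8.21 to 36.9 CPM, BAD fell by 0.67 ± 0.07, and MCL1, the most abundant, had a value of -0.16 ± 0.04 with overlapping groups. Of 9 tested genes of the senescence-associated secretion, 6 rose and 0 fell, with a median of 0.95. The median of this list against DMSO was 0.99 with RA alone and 0.13 with PB alone. IGFBP3 was at 20.6, 22.2, 34.9 and 46.2 CPM in DMSO and at 38.4, 43.9, 69.3 and 93.3 CPM in PB+RA, overlapping as groups but higher in PB+RA in each of the 4 replicate numbers, with a rise of 0.95 ± 0.06. IGFBP5 rose by 0.90 ± 0.17, also with overlap.

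**Figure D5:**
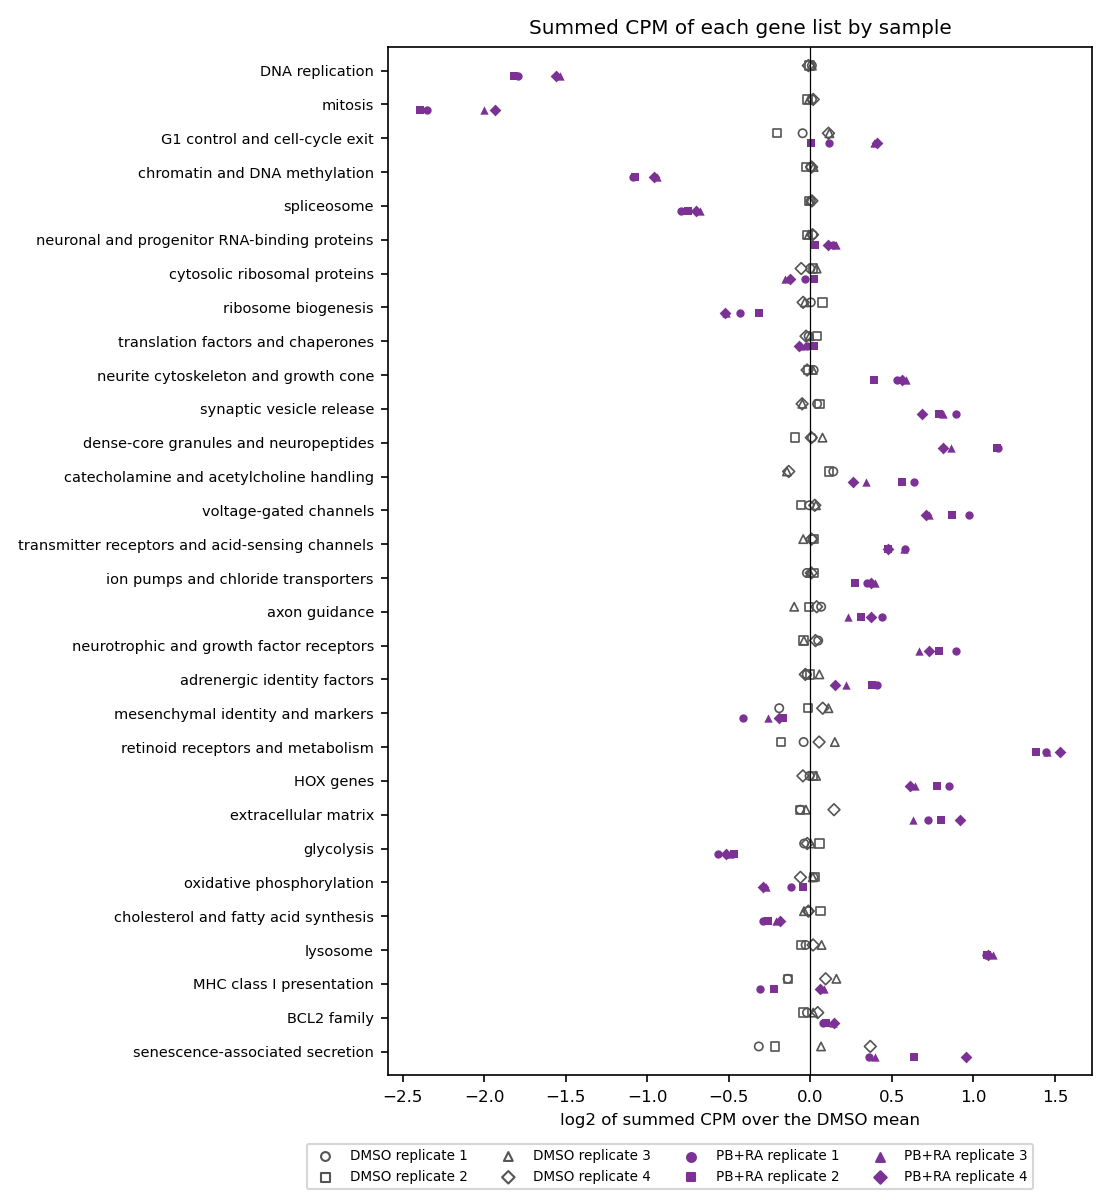
Summed CPM of each gene list in each of the 4 DMSO (open) and 4 PB+RA (filled) samples, as the log2 of its ratio to the DMSO mean (horizontal axis), with 1 marker shape per replicate. Mitosis and DNA replication lie furthest to the left and the retinoid list furthest to the right, and the sums for ribosomal proteins overlap between the groups.

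The state with both agents was also set against the single agents in the same fit. PB+RA differed from PB at 2928 genes (19.0%) and from RA at 4866 genes (31.6%). These comparisons share samples with the one against DMSO, so their values are given side by side and not correlated. The mitosis genes had median log2 fold changes against DMSO of -0.32 (RA), -1.10 (PB) and -2.30 (PB+RA), and the replication genes of -0.33, -0.97 and -1.79. For synaptic vesicle release the medians were 0.26 (RA), 0.94 (PB) and 1.15 (PB+RA), and for voltage-gated channels 0.40, 0.65 and 0.70. The mean sums of these lists were close between PB and PB+RA, at 4907 and 4961 CPM and at 2030 and 2073 CPM. The neurite list had medians of 0.29, 0.49 and 0.59, and dense-core granules 0.59, 0.87 and 0.99. Transmitter receptors and acid-sensing channels had 0.13, 0.73 and 0.47. Catecholamine and acetylcholine genes had 0.30, 0.51 and 0.49, and neuronal and progenitor RNA-binding proteins 0.18, 0.35 and 0.28. For spliceosome genes the medians were -0.18, -0.46 and -0.74. For the retinoid list they were 1.42, -0.09 and 1.21 in the same order, for the extracellular matrix 0.75, 0.21 and 0.69, and for HOX genes 0.76, 0.15 and 0.76. For cholesterol and fatty acid synthesis they were 0.19, -0.47 and -0.46. The median over all tested genes was 0.01, 0.03 and 0.04.

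For single abundant genes the levels with both agents stood in different places. CTSB was above PB by 1.84 on the log2 scale (adjusted p = 2.6e-13) and above RA by 0.72 (adjusted p = 1.3e-08). NGFR was above PB by 1.28 (adjusted p = 3.9e-10) and above RA by 1.10 (adjusted p = 7.8e-10), and TUBA1B was below both, with log2 differences of -0.57 from PB (adjusted p = 7.3e-05) and -1.44 from RA (adjusted p = 2.9e-09). CHGA did not pass the test against PB alone (-0.14, adjusted p = 0.51). CRABP2 and GJA5 did not pass the test against RA alone (0.17, adjusted p = 0.13, and 0.12, adjusted p = 0.075).

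Gene length differed between the genes that rose and those that fell. The median genomic span was 34.7 kb for genes that rose, 25.4 kb for genes that fell and 30.4 kb for all tested genes with a gene model. Of the 627 genes longer than 300 kb, 41.3% rose and 12.1% fell, and of the 3463 genes under 10 kb, 23.8% rose and 22.2% fell. Long non-coding RNA genes made up 11.6% of the genes that rose, 4.01% of those that fell and 6.64% of all. A correction for GC content and exon length is among the alternatives in the closing section.

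The replicates fell into 2 sets, and not only within PB+RA. In PB+RA, CHGA, NGFR, CACNA1H and DBH were higher in replicates 1 and 2, and TOP2A, TYMS, ATP1B1 and LAMA4 in replicates 3 and 4. The same order held in DMSO for all of these genes but TYMS. With PB alone the mitosis sum was 2914 and 2818 CPM in replicates 1 and 2 and 3214 and 3391 CPM in replicates 3 and 4. With RA alone the order was the other way, at 5343 and 5205 CPM and at 5088 and 5017 CPM. No label marks these replicates as a batch. When the comparison was made in each set alone, 2898 of the 3909 genes that rose (74.1%) and 2358 of the 2863 that fell (82.4%) passed the criteria in both sets. The direction was the same in both sets for 3804 of the 3810 raised genes and 2831 of the 2832 lowered genes tested in both.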

How the data were processed

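RNA was measured in 16 samples, 4 each of DMSO, RA, PB and PB+RA, grouped by the titles. According to their methods, the authors trimmed reads with Trim Galore (quality of at least 20), aligned them to hg19 with STAR and deposited its read counts per gene, with no normalization. The submitters' processing notes give Trim Galore 0.6.4 and STAR 2.6.1d, and the methods name another patch release of STAR. The strand setting and annotation release of the counting are not given in the sources used here, so genes overlapping another on the opposite strand are uncertain. STAR counts only uniquely mapped reads, which affects near-identical copies. The deposited CPM, which the authors scaled by library totals, and the table of the authors' own comparisons (log2 fold changes and p-values) were not used.

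CPM was computed from the counts. Differential expression used edgeR 4.0.16 in R 4.3.3 (filterByExpr, TMM, robust quasi-likelihood F test) on all 16 samples with group and replicate number as terms, leaving 9 residual degrees of freedom. Genes passed where the p, adjusted by Benjamini-Hochberg over the 15415 tested genes, was below 0.05, with an absolute log2 fold change above 0.5. The SE is the absolute log2 fold change over the square root of F. The replicate number was a block by plan, with replicates plated as independent experiments according to the methods. The 24 pairs of samples with the same number had correlations of deviations from group means of 0.330 to 0.573, and DMSO with PB+RA 0.405 to 0.464. The highest between different numbers was 0.447, above the lowest of these, so the correlations do not by themselves establish the pairing. In data simulated for PB+RA against DMSO with 15173 genes, the fit found 69.7% of true changes of 0.6 on the log2 scale, 88.1% of those of 1 and 100% of those of 2, and made 5 false calls. Only 66, 67 and 65 genes were changed at these sizes, far fewer than the 43.9% called in the data. The simulation therefore did not test the fit under so wide a change or with replicates in 2 sets. At a depth of 19.5 to 31.6 M counts, 3 counts correspond to 0.0949 to 0.154 CPM, which covers counting error only.

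The members, the 31 gene lists, the 9 pairs and the 6 marker lists were chosen with earlier results of these data known. Named genes were the 10 largest gains and losses in CPM, each list's largest rise and fall (mean of at least 10 CPM) and most abundant member, the 5 largest rises and falls by fold (mean of at least 50 CPM), the 10 most abundant genes of each group, and the pairs. Chosen after their values were seen were RARB, CDK1, PLK1, MCM3, PCNA, TH, DDC, DBH, SLC18A2, MAPT, SNAP25, SYP, FN1, COL6A1, ATP1B1, GATA2, H2AZ1 and RARA. Gene coordinates and lengths are from GENCODE models on GRCh37, the assembly hg19, found for 14840 tested genes (96.3%); the promoters are from RefSeq on GRCh38.p14, and no coordinate was converted. Some genes are not reported here. Alternatives used limma 3.58.1 (voom) and DESeq2 1.42.0, other scalings, filters, sample sets and a GC and length correction by splines with 5 degrees of freedom.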

Additional observations from a re-analysis of the deposited data

Results flagged for a closer look

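In 318 groups of 4 samples, taken over the named genes and the list sums, 7 (2.20%) held a sample set apart from the other 3 by most of the group's range (Dixon's test at 95%), and chance alone flags about 1 in 20 groups. In DMSO, replicate 2 was the highest for GJA5 at 7.26 CPM (gap of 0.944 of the range), for RIMS2 at 86.0 CPM (0.902) and for GCH1 at 68.8 CPM (0.876). In DMSO, replicate 4 was the lowest for TUBB3 at 705 CPM (0.857) and for the sum of the oxidative phosphorylation genes at 9886 CPM (0.87), and the highest for the sum of the extracellular matrix genes at 2050 CPM (0.831). In PB+RA, replicate 1 was the highest for SMARCA4 at 649 CPM (0.944).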

How the results depend on the processing

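The counts of raised and lowered genes stayed within 1.5 times of 3909 and 2863 under every refit, and 0 genes changed from rising to falling or the reverse. Without a fold minimum 6033 rose and 5445 fell, and with an absolute log2 fold change above 1 the counts were 2054 and 1135. Leaving out 1 replicate gave 3647 to 3942 raised and 2887 to 3068 lowered genes. Without the replicate block 3698 rose and 2757 fell, and no call of a named gene changed. With the GC and length correction 3410 rose and 3475 fell, the raised share of calls went from 57.7% to 49.5% and the median of all tested genes was -0.06. DESeq2 gave 4040 and 3046, and limma-voom 3911 and 2868. Replicates 1 and 2 alone gave 3799 and 2963, and replicates 3 and 4 alone 3464 and 2920.

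Of 101 named genes that passed the criteria, 93 did so in all 19 refits. The others were MYCN, NCL, CCND1, VIM, HOXC8, PFKM, KIF5B and DBH, whose log2 fold changes were 0.51 to 0.70 in size, and RPS2 passed them in 3 refits. Among the named genes, the sign changed for 4 that did not pass both criteria: KCNH2 (-0.0511 with the GC and length correction, -0.0687 in replicates 3 and 4), EEF1A1 (-0.0909 with that correction, while its main value of 0.12 had an adjusted p of 0.0152 and missed the fold minimum), SCD (0.0075 with library totals, 0.0022 in replicates 3 and 4) and RGS5 (0.0134 with library totals, 0.0043 with a mean of at least 1 CPM, 0.0345 with the correction, 0.0789 in replicates 3 and 4, and from -0.0967 to 0.0415 when 1 replicate was left out). The cause was not tested. The correction lowered the raised synaptic vesicle genes from 29 to 23, neurite genes from 21 to 17 and lysosomal genes from 15 to 10. The composition without mitochondrially encoded genes was not run, since the table holds no rows for them. Depth limits the genes below the filter on low counts.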
